A study of Mus musculus with 4 samples.

Results

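The genes described are 8 postsynaptic scaffolds of excitatory synapses: Homer1, Homer2, Homer3, Shank1, Shank2, Shank3, Dlg4 and Dlgap1. They were chosen by name, with earlier results of these data known, among the 19938 genes of the deposited table. They were read by 12 probe sets with exactly 1 gene symbol. Homer1, Homer3, Shank1, Shank3 and Dlg4 had a single probe set each, Homer2 and Dlgap1 had 2, and Shank2 had 3. No filter on low values was applied, so all 8 entered every test. The samples were cortical neuron cultures from newborn mice (postnatal day 0) of mixed SV129 and C57BL/6 strain, and the labels name both Syt1-deficient and wild-type pups without assigning them to arrays. On day 5 in vitro the neurons received a lentivirus: the control vector L309 (control), the calmodulin shRNAs KD30 (knockdown), or those shRNAs together with rCaM, a wild-type calmodulin they cannot target (rescue). RNA was taken at 14 to 15 days, and the medium had held serum, B27 and the mitosis blocker Ara-C. Affymetrix mouse Gene 1.0 ST arrays gave 2 knockdown and 2 rescue samples, each as a ratio to the control array of the same repeat. The same control array therefore stands under both groups of a repeat, and every value below is a log2 ratio, in which 0 is equality with control.

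The postsynaptic density holds glutamate receptors in place through layers of scaffold proteins. Dlg4 encodes PSD-95, a membrane-associated guanylate kinase that sits under the receptors, Dlgap1 encodes a protein that links PSD-95 to the Shank proteins, and the Shanks bind Homer. Homer proteins bind metabotropic glutamate receptors, inositol trisphosphate receptors and Shank through their amino-terminal EVH domain. Their long forms join into tetramers through a coiled coil, whereas a short Homer1 form without the coiled coil is induced by neuronal activity and uncouples these contacts. The single Homer1 probe set listed 4 curated mRNA accessions and could not tell the long and short forms apart. In cultures read in bulk, fewer cells of a type and less RNA per cell cannot be told apart.

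Of the targeted calmodulin transcripts, those described here were low in both groups. Calm2 was at -1.08 and -1.72 in the knockdown and Calm3 at -1.32 and -2.40, and both were also below control in the rescue (-0.84 and -1.28, and -2.41 and -3.55). Ratios of all genes were spread most widely in knockdown repeat 2 (standard deviation 0.349 on the log2 scale, against 0.232 to 0.243 in the other samples), the sample in which Homer2 was lowest.

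Homer1 was the scaffold gene that changed most. Its ratio was -1.14 and -1.05 in knockdown repeats 1 and 2, against 0.31 and 0.26 in the rescue repeats. Both knockdown samples lay below control (45.3% and 48.4% of it) and both rescue samples above control (124% and 120%), with no overlap between the groups. Homer1 fell in the knockdown to a mean of -1.09, which is 46.8% of control (SE 0.12, n = 2, limma adjusted p = 0.014), and only 0.145% of all genes had a lower mean. Leaving out either rescue sample, which the fit uses only for its estimate of the spread, took this adjusted p to 0.0608 with the value unchanged.

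A start region of Homer1 is shown because it was the member past the threshold. Beside it is a start region each of Homer2 and Dlg4, the members whose values over the 4 samples lay nearest to Homer1. The sequences are those of RefSeq on GRCm38.p6, 250 bases before to 50 after an annotated start, and the table held 11 such windows for 6 of the members, all but Shank1 and Shank2. The windows shown are chr13:93303507-93303806 on the plus strand for Homer1, chr7:81706876-81707175 on the minus strand for Homer2 and chr11:70023732-70024031 on the plus strand for Dlg4. Capitals mark TGACG, the core of cyclic AMP response elements, searched on both strands. Homer1 and Homer2 had 2 windows each and Dlg4 had 3. For Homer1 and Dlg4 the window shown is the one that held TGACG, which their other windows did not. Neither Homer2 window held it.
Homer1: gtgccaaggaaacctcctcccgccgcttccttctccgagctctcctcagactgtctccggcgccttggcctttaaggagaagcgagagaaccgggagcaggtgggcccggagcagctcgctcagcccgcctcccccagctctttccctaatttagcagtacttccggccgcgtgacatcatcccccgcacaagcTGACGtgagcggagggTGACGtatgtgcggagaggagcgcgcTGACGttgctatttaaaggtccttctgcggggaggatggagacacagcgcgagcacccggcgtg
Homer2: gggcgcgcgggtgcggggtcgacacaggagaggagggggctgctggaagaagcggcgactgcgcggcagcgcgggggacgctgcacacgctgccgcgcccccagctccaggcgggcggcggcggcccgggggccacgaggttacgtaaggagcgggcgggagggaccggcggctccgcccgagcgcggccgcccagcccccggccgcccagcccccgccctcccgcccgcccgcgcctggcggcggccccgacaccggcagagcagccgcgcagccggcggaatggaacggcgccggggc
Dlg4: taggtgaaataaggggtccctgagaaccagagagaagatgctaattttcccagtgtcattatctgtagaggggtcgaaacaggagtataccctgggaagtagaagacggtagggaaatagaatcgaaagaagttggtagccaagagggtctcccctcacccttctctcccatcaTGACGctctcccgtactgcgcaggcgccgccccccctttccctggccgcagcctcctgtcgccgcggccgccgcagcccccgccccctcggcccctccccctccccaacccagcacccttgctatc
The Homer1 window held TGACG 3 times, at positions -56, -40 and -14 from the start. Of 32851 mouse windows of the same length, 20.8% held it at least once and 1.03% at least 3 times. It occurred once in the Dlg4 window shown, at -76, and in none of the other 9 member windows. In all, 2 of the 11 member windows held TGACG, beside the 20.8% of all windows. The core holds the bases CG, which the Homer1 window had 26 times, against a median of 7 over all windows. The full palindrome TGACGTCA, which contains the core, was in none of the 11 (1.79% of all windows), nor was the CArG box (1.63%) or the MEF2 site (3.19%). These are matches of letters in a fixed window, and no binding was measured.

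**Figure D1:**
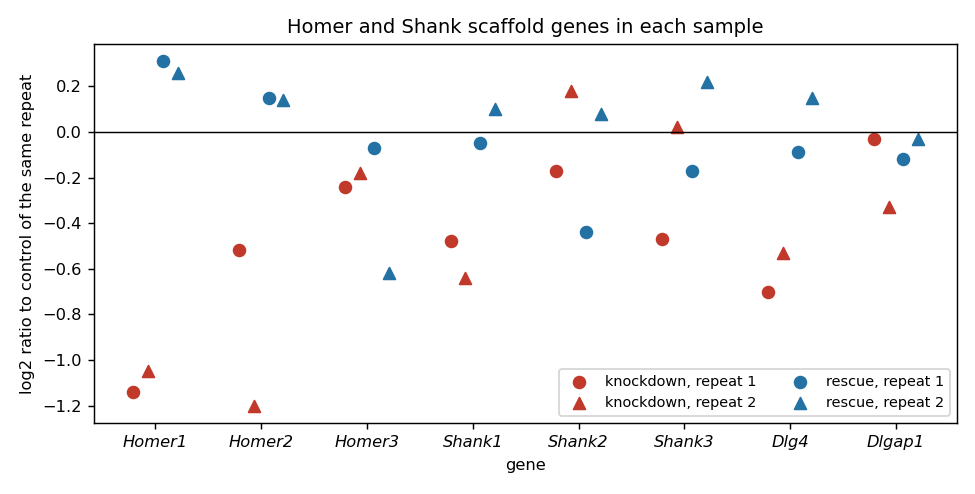
Log2 ratio to control of the same repeat (vertical axis) for the 8 scaffold genes, with a point for each of the 2 knockdown (red) and 2 rescue (blue) samples. Homer1 lay at -1.14 and -1.05 in the knockdown and at 0.31 and 0.26 in the rescue, and the 2 groups were also apart for Homer2, Shank1 and Dlg4.

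Homer2, which shares the domain plan of Homer1, was lower in both knockdown samples but unevenly. Its ratio was -0.52 and -1.20 in the knockdown, against 0.15 and 0.14 in the rescue. The rescue samples were close together and above control, while the knockdown repeats were 0.68 apart. The knockdown mean was -0.86, or 55% of control (SE 0.17, n = 2), and missed the threshold (limma adjusted p = 0.0824). Once a repeat term, or block, is fitted, the limma adjusted p was 0.0145. The block also takes out the spread of the shared control arrays, so p-values against control with it are too small. The mean rested mostly on repeat 2: it was -1.20 without knockdown repeat 1 and -0.52 without knockdown repeat 2. Either fit leaves 1 knockdown sample, so no spread among knockdown samples enters it. Both Homer2 probe sets, each listing 3 curated mRNA accessions, were below control in both knockdown samples, at -0.47 and -1.46 for the first and -0.58 and -0.94 for the second. In the rescue the first was at 0.31 and 0.09 and the second at -0.00 and 0.19.

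Homer3, the family member best known from cerebellar Purkinje cells, differed little from control in the knockdown. It was at -0.24 and -0.18 there, and at -0.07 and -0.62 in the rescue. Rescue repeat 2 was the lowest of the 4 samples, and the groups overlapped. The knockdown mean was -0.21 (SE 0.15, 95% interval -0.55 to 0.14, limma adjusted p = 0.536).

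Shank1, a scaffold of mature spines, was lower in both knockdown samples by similar amounts. Its ratio was -0.48 and -0.64 in the knockdown, against -0.05 and 0.10 in the rescue, so the groups did not overlap. The knockdown mean was -0.56, or 67.8% of control (SE 0.12, n = 2), short of the threshold (limma adjusted p = 0.0931). With the block the limma adjusted p was 0.0296, too small for the reason given above. Shank3, whose loss of a copy underlies Phelan-McDermid syndrome, was at -0.47 and 0.02 in the knockdown, against -0.17 and 0.22 in the rescue. Repeat 1 was the lower one in both groups, and the groups overlapped (knockdown mean -0.22, SE 0.16, 95% interval -0.59 to 0.14, limma adjusted p = 0.524).

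Shank2 averaged near control in the knockdown, while its probe sets disagreed. The gene average was -0.17 and 0.18 in the knockdown, against -0.44 and 0.08 in the rescue (knockdown mean 0.01, SE 0.16, limma adjusted p = 0.993). The probe set that lists 2 curated Shank2 mRNA accessions was at -0.76 and -0.87 in the knockdown, against -0.38 and 0.22 in the rescue. The other 2 probe sets list a single predicted transcript model and no curated mRNA. One was at 0.33 and 0.65 in the knockdown, against -0.26 and 0.07 in the rescue, and the other at -0.09 and 0.77 against -0.67 and -0.05. Within an array, the set with curated mRNAs minus the first of these came to -1.10 and -1.52 in the knockdown and to -0.12 and 0.15 in the rescue, a gap that was not tested. With every gene averaged over its probe sets with curated mRNAs where it has any, an alternative chosen after the Shank2 values were seen, Shank2 was at -0.82 (SE 0.16, 95% interval -1.18 to -0.45), beside Homer2 in size and also short of the threshold (limma adjusted p = 0.0821).

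**Figure D2:**
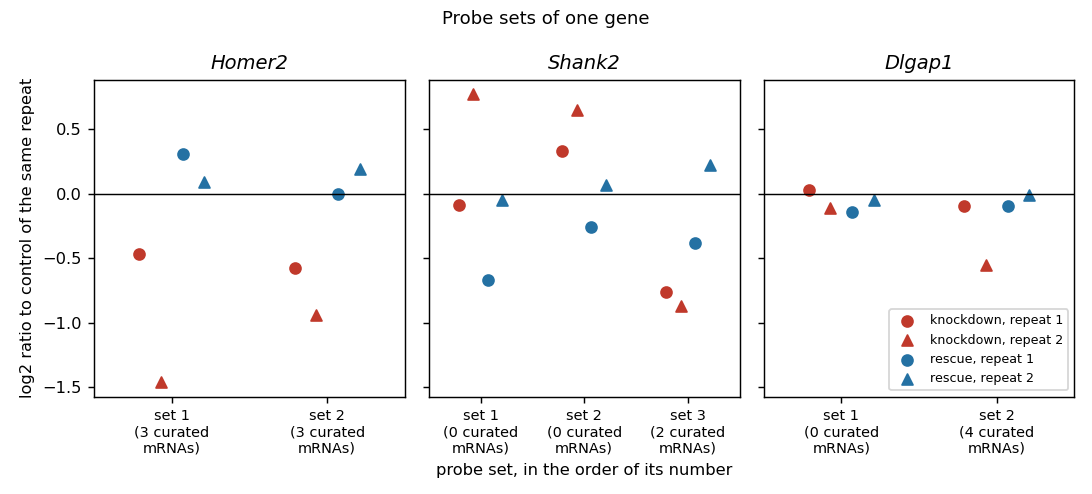
Log2 ratio to control of the same repeat (vertical axis) for each probe set of the 3 genes with more than 1, ordered by probe set number, with the number of curated mRNA accessions each lists; red is knockdown and blue is rescue. The Shank2 probe set with 2 curated mRNAs lay at -0.76 and -0.87 in the knockdown, whereas the others reached 0.77 and 0.65 in knockdown repeat 2.

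Dlg4, which encodes PSD-95, was lower in both knockdown samples. It was at -0.70 and -0.53 there and at -0.09 and 0.15 in the rescue, without overlap. The knockdown mean was -0.61, or 65.3% of control (SE 0.12, n = 2), and missed the threshold (limma adjusted p = 0.0886). With the block the limma adjusted p was 0.0201, which is again too small. Dlgap1, the link between PSD-95 and Shank, was near control, at -0.03 and -0.33 in the knockdown, against -0.12 and -0.03 in the rescue (knockdown mean -0.18, 95% interval -0.47 to 0.11, limma adjusted p = 0.518). Its probe set with 4 curated mRNAs was at -0.10 and -0.55 in the knockdown, and the set with no curated mRNA at 0.03 and -0.11.

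Over the 8 genes, 1 passed the threshold of 0.05 for knockdown against control. The same test called 0.306% of all genes, and 0.171% as lower. With the repeat as a block 4 passed, all lower (Homer1, Homer2, Shank1 and Dlg4), in a fit that called 5.39% of all genes and 3.48% as lower. That fit also takes out the spread of the shared control arrays, so its p-values against control are too small. Below control in both repeats were 6 of the 8, against 31.1% of all genes. The median of the 8 was -0.39, at -0.48 and -0.43 in the 2 repeats, beside 0.00 for all genes. It was -0.59 with curated probe sets only.

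Cell type markers were read beside the scaffolds. Of 10 cortical excitatory neuron markers, 8 were below control in both knockdown repeats (31.1% of all genes were). Medians of the 10 were -0.30 and -0.63 in the knockdown, against -0.15 and -0.18 in the rescue. Of 10 astrocyte markers, 10 were above control in both knockdown repeats (30.5% of all genes were), with medians of 0.32 and 0.34, against -0.08 and -0.11 in the rescue. Neuronal markers of any type (10 genes) had medians of -0.11 and -0.29 in the knockdown, against -0.04 and -0.07 in the rescue. Interneuron markers (11 genes) lay at 0.14 and -0.56 in the knockdown, against -0.32 and -0.58 in the rescue. Microglia markers (10 genes) lay at -0.40 and -0.01 and at -0.41 and -0.15. Endothelial and pericyte markers (8 genes) had knockdown medians of 0.08 and 0.41, against -0.01 and 0.06 in the rescue. Fibroblast markers (7 genes) had -0.06 and 0.42, against -0.03 and -0.16. Oligodendrocyte lineage markers (9 genes) had 0.03 and 0.18, against -0.09 and -0.15. No marker of these lists passed the threshold in limma. At an unadjusted p under 0.05, 6 excitatory neuron, 3 interneuron and 3 general neuronal markers were lower in the knockdown (9.04% of the genes tested). Higher were 6 astrocyte, 2 endothelial or pericyte, 1 interneuron, 1 general neuronal and 1 fibroblast marker (6.93% of the genes tested). The block fit called 4 excitatory neuron, 3 interneuron and 2 general neuronal markers lower (3.48% of the genes tested). It called 3 astrocyte markers higher, against 381 of the 19938 genes, and its p-values against control are too small. The part of the markers in the scaffold values was not tested. Since ratios carry no level, neither summed levels nor markers at 0 can be given. For the same reason the labelled cell type could not be checked against its markers.

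Rescue against control addresses whether resistant calmodulin brings the scaffolds back to the control level. In limma 0 of the 8 passed, against 0% of all genes, and with the repeat as a block 0 of 8 passed against 0.125% of genes. At an unadjusted p under 0.05 there was 1 of the 8, Homer1, against 7.44% of genes. Homer1 was above control, at 122% (mean 0.29, SE 0.12, 95% interval 0.02 to 0.55, limma adjusted p = 0.648). Homer3 was the lowest (mean -0.35, SE 0.15, limma adjusted p = 0.672), with most of that in repeat 2. Shank1, Shank3 and Dlg4 each averaged 0.03, with 95% intervals of -0.25 to 0.30, -0.34 to 0.39 and -0.26 to 0.32. Missing the threshold does not show equality with control.

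The comparison of knockdown with rescue sets cultures that carried the same shRNAs side by side, and within a repeat the control cancels. Homer1 was at -1.46 and -1.30 in the 2 repeats of this difference. The mean of -1.38 corresponds to 38.4% of the rescue level (SE 0.16, n = 2 per group, limma adjusted p = 0.0499; 0.00836 with the block). The call sat at the edge of the threshold and was lost (adjusted p = 0.389 and 0.412) when rescue repeat 1 or rescue repeat 2 was left out, at values of -1.35 and -1.41. Homer2 was at -0.68 and -1.34 (mean -1.01, SE 0.23, limma adjusted p = 0.303, or 0.0607 with the block). Its mean was -1.35 without knockdown repeat 1 and -0.67 without knockdown repeat 2. The block pairs the samples of a repeat, whereas the fit without it does not.

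Among the others, Dlg4 was at -0.61 and -0.68 in the 2 repeats of this comparison (mean -0.64, SE 0.18). Its limma adjusted p was 0.39, or 0.112 with the block. Shank1 was at -0.44 and -0.73 (mean -0.59, SE 0.17, limma adjusted p = 0.42, or 0.159 with the block). Shank3 was at -0.30 and -0.20, Shank2 at 0.27 and 0.11, Dlgap1 at 0.09 and -0.30, and Homer3 at -0.17 and 0.45. Dlgap1 and Homer3 had opposite signs in the repeats. In all, 1 of the 8 passed, against 0.0702% of all genes in either direction and 0.0301% as lower. With the block it was again 1, against 0.617% and 0.431%. Both knockdown samples lay below both rescue samples for 4 of the 8, against 15.1% of all genes.

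**Figure D3:**
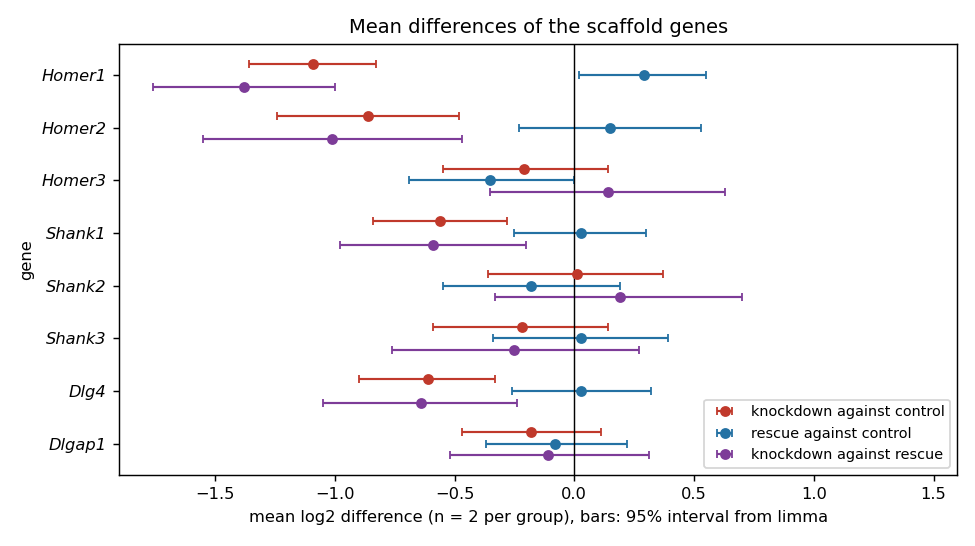
Mean log2 difference of each scaffold gene (horizontal axis; bars are 95% intervals from limma, n = 2 per group) for knockdown against control (red), rescue against control (blue) and knockdown against rescue (purple). Homer1 stood at -1.09, 0.29 and -1.38, and the intervals of Homer3, Shank2, Shank3 and Dlgap1 for knockdown against control included 0.

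Genes around these scaffolds were described from 8 lists holding 134 measured genes: receptors, scaffolds, signalling and adhesion proteins of excitatory synapses, and for comparison inhibitory scaffolds and activity-regulated genes. Of the 134, 1 passed in the knockdown against control and 0 in the other comparisons by limma. That gene was Mpp2, a guanylate kinase scaffold of the same family as Dlg4. It was at -0.78 and -0.89 in the knockdown, against -0.13 and 0.14 in the rescue, and fell to a mean of -0.83 (SE 0.13, limma adjusted p = 0.0498). Its call was lost without knockdown repeat 2 (adjusted p = 0.0774) and without either rescue sample or with only the knockdown columns fitted (0.111). It was also lost after quantile normalization (0.0903), with the median over probe sets (0.0504), with curated probe sets (0.0511) and with every probe set tested (0.395). At an unadjusted p under 0.05, 1 of the 134 was higher and 56 were lower in the knockdown, against 6.93% and 9.04% of all genes. In rescue against control 17 were higher and 8 lower (2.95% and 4.49% of all genes), and 11 of the 17 were activity-regulated. In knockdown against rescue 1 was higher and 47 lower (2.81% and 4.01% of all genes), and 14 of the 47 were activity-regulated. With the repeat as a block, 32 were lower (3.48% of all genes) and 0 higher in the knockdown against control. In the rescue 2 were higher (0.0602% of all genes) and 0 lower. The p-values of that fit against control are too small. In knockdown against rescue it gave 11 lower (0.431% of all genes) and 0 higher, and 7 of the 11 were activity-regulated.

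Beside the 8 scaffolds, 12 of 16 other guanylate kinase and SAPAP scaffolds were below control in both repeats (31.1% of all genes were), with a median of -0.35. Dlgap2 was at -0.69 (adjusted p = 0.066) and Dlg3 at -0.65 (adjusted p = 0.0737), while Cask, which acts on both sides of the synapse, was at 0.11 and Dlg1 at 0.05 with opposite signs in the repeats.

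Receptors and channels that bind Homer had a median of -0.27 over 10 genes. Below control in both knockdown repeats were 6 of them (31.1% of all genes, the share for each list below). Of the 10, 0 passed (0.306% of all genes) and 3 were lower at an unadjusted p under 0.05 (9.04% of all genes). The median was -0.46 without knockdown repeat 1 and -0.12 without knockdown repeat 2. Grm5, the metabotropic glutamate receptor that Homer tethers, was at -0.63 and -1.20 in the knockdown (mean -0.91, limma adjusted p = 0.0668). It was also low in the rescue, at -0.85 and -0.59, where Homer1 was above control. Trpc4, a cation channel, was at -0.44 and -1.30 in the knockdown and near 0 in the rescue (-0.04 in repeat 1). Actin and membrane partners of Homer and Shank had a median of -0.27 over 16 genes, 12 below control in both repeats, with 0 past the threshold and 7 lower unadjusted (median -0.47 without knockdown repeat 1 and -0.18 without knockdown repeat 2). The largest mean among them belonged to Baiap2, the actin regulator IRSp53 that binds Shank, at -0.83 and -0.74 (mean -0.79, adjusted p = 0.0737). Signalling proteins that gather at PSD-95 had a median of -0.31 over 17 genes, 15 below control in both repeats, 0 past the threshold and 8 lower unadjusted, with the scaffold Cnksr2 at -0.83 and Camk2a at -0.77.

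AMPA and NMDA receptor subunits with their TARPs had a median of -0.36 over 13 genes. Below control in both repeats were 6 of them (31.1% of all genes, the share for each list below). Of the 13, 0 passed the threshold and 6 were lower unadjusted (9.04% of all genes). The list median was -0.31 without knockdown repeat 1 and -0.21 without knockdown repeat 2. Cacng3, a TARP that escorts AMPA receptors to PSD-95, followed the signs of Homer1: it was at -1.18 and -0.64 in the knockdown, against 0.35 and 0.80 in the rescue (knockdown against rescue -1.48, limma adjusted p = 0.121; 0.0074 with the block). Excitatory synapse adhesion proteins had a median of -0.35 over 19 genes, 15 below control in both repeats, 0 past the threshold and 11 lower unadjusted, with Lgi1, a secreted ligand that tethers receptors through Adam22, at -0.68 and -1.47. Inhibitory postsynaptic scaffolds had a median of -0.17 over 9 genes, 6 below control in both repeats, with 0 past the threshold and 4 lower unadjusted (median -0.07 without knockdown repeat 1 and -0.24 without knockdown repeat 2). Gphn, the central inhibitory scaffold gephyrin, was at -0.10 and -0.07 in the knockdown. The lists were not tested against each other.

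**Figure D4:**
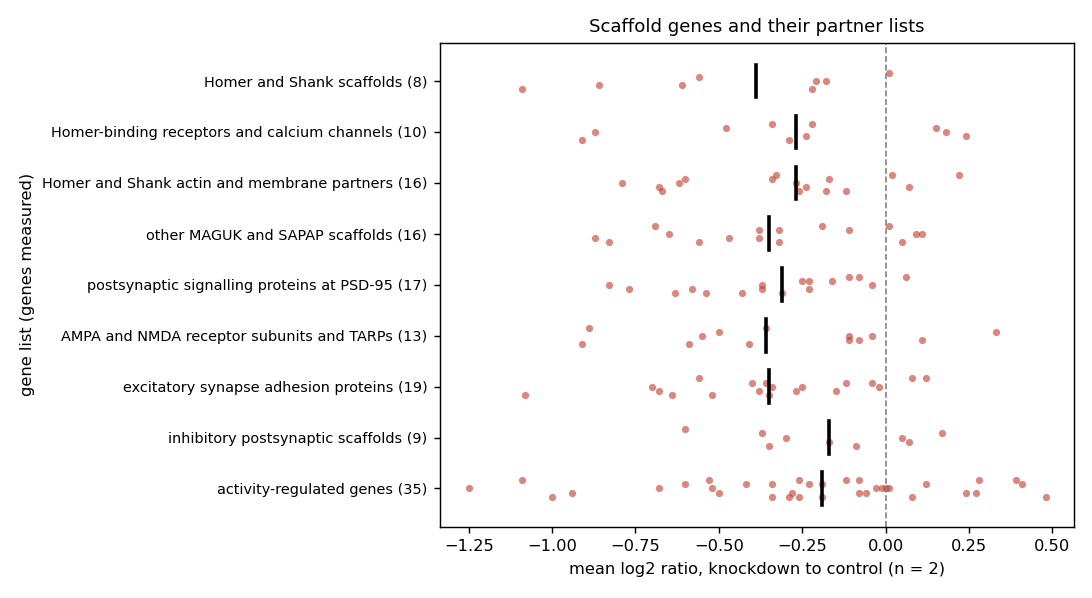
Mean log2 ratio of knockdown to control (horizontal axis, n = 2) for each measured gene of the scaffold group and of 8 partner lists, a point per gene, with the list median as a black bar and the median of all genes (0.00) as a dashed line. The medians ran from -0.39 for the 8 scaffolds to -0.17 for inhibitory scaffolds.

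Since Homer1 has an activity-induced form, its values were set beside 35 activity-regulated genes, a list without Homer1. In knockdown repeat 1 these genes ranged from -2.07 (Npas4) to 0.12 with a median of -0.56, and 7 of them lay below Homer1. In knockdown repeat 2 they ranged from -0.75 (Egr3) to 1.16 with a median of 0.26, and 0 lay below Homer1. Arc, a postsynaptic immediate early gene, was at -1.51 and -0.49 and Npas4 at -2.07 and -0.11 in the 2 repeats, where Homer1 was at -1.14 and -1.05. In the rescue the list medians were 0.33 and 0.32, near the Homer1 values of 0.31 and 0.26, and 17 and 15 of the 35 lay below Homer1. None of the 35 passed the threshold in any comparison by limma. At an unadjusted p under 0.05, 8 were lower (9.04% of all genes) and 1 was higher (6.93%) in the knockdown. In the rescue 11 were higher (2.95%) and 0 lower (4.49%). With the repeat as a block 5 were lower in the knockdown (3.48% of all genes), and 2 (Ptgs2 and Npas4) were higher in the rescue (0.0602%). The block p-values against control are too small. In knockdown against rescue 14 were lower unadjusted (4.01% of all genes) and 7 with the block (0.431%). There Ptgs2 was at -2.81 (limma adjusted p = 0.0748; 0.00757 with the block), Npas4 at -2.21 (0.36; 0.0057) and Arc at -1.96 (0.107; 0.0131).

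**Figure D5:**
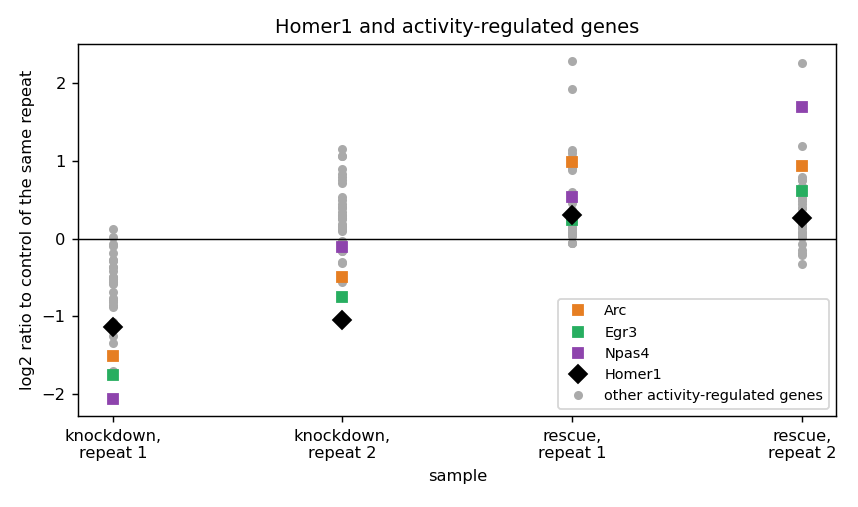
Log2 ratio to control of the same repeat (vertical axis) in each of the 4 samples for Homer1 (black diamond), Arc, Egr3 and Npas4 (coloured squares) and the other activity-regulated genes (grey). In knockdown repeat 2 the lowest of the 35 listed genes was at -0.75 and Homer1 at -1.05.

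The genes most like Homer1 over the 4 samples, by Euclidean distance on the log2 scale, were Sstr2, a somatostatin receptor (0.37), the orphan receptor Gpr26 (0.37), the T-type calcium channel gene Cacna1i (0.40), Fam131a (0.43) and Ipcef1 (0.46). Sstr2 was at -0.88 and -0.95 in the knockdown, against 0.16 and 0.45 in the rescue, and Gpr26 at -1.47 and -1.12 and at 0.23 and 0.39. Cacna1i and Fam131a matched Homer1 in the knockdown but stood closer to control in the rescue, at a mean of 0.02 each. Among the scaffolds, Homer2 (0.67), Dlg4 (0.80) and Shank1 (0.87) were nearest to Homer1, with 0.264%, 0.663% and 1.03% of genes closer. Shank2 (1.75) was the farthest.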

How the data were processed

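The 4 columns were linear ratios as the authors deposited them, each dividing a knockdown or rescue array by that repeat's control array (per the labels). Background correction, summarization, normalization and build are not given in the sources used here. Without intensities, dim probe sets cannot be recognised. The 2 control arrays were not used here. Of 35399 probe sets, 21789 had exactly 1 gene symbol, 1621 several, and 11989 were not listed in the platform annotation; Entrez identifiers of 21698 matched GRCm38.p6 names, changing 0. Ratios were put on the log2 scale, averaged per symbol and fitted with limma 3.58.1 in R 4.3.3 (a coefficient per group over all 4 columns, two-sided, 2 residual and 6.11 prior degrees of freedom), with Benjamini-Hochberg adjustment over 19938 genes. A run of the fit on simulated data checked the bias of its mean values and set no condition on false calls.

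Members and lists were chosen with earlier results of these data known, so lists are described by counts and medians, with no set test. Named were the 8 members, up to 4 genes per partner list (those past the threshold first, then the largest means of one sign in both repeats), up to 2 per marker list, and the 5 genes nearest to Homer1, without predicted genes, olfactory and vomeronasal receptors and small RNAs. Mention of Cask, Dlg1 and Gphn falls outside that rule, after their values were seen. Samples with one repeat number share a day per the labels, so the numbers pair them; their deviations from group means correlated at 0.305 across genes. No label states that the repeats are separate cultures; the p-values therefore reflect spread among these samples alone, and it may be technical. Alternatives were the repeat as a block, quantile normalization, median centring, the median over probe sets, each probe set tested, only the groups compared, each sample left out, and curated probe sets, the last added after the data were seen.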

Additional observations from a re-analysis of the deposited data

Results flagged for a closer look

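Homer1 and Homer2 lay below control in both knockdown samples and above it in both rescue samples. The difference between knockdown and rescue was -1.38 for Homer1 and passed the threshold (limma adjusted p = 0.0499, or 0.00836 with the block). For Homer2 it was -1.01 and did not pass (limma adjusted p = 0.303, or 0.0607 with the block). Both groups share their control arrays, which cancel in these differences.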

How the results depend on the processing

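Homer1, Homer2, Shank1 and Dlg4 kept their direction in knockdown against control and knockdown against rescue under every alternative run. In knockdown against control the 8 scaffolds gave 4 calls with the repeat as a block and 0 after quantile normalization (Homer1 -0.94, limma adjusted p = 0.0575), with only the knockdown columns fitted, or with every probe set tested, and 0 to 3 with a sample left out. All genes gave 1074, 20, 12 and 0 under these settings and 12 to 1272 with a sample left out. In knockdown against rescue the scaffolds gave 0 calls after quantile normalization, with the median over probe sets, with curated probe sets only or with every probe set tested, and 0 to 2 with a sample left out. All genes gave 123 with the block, then 2, 4, 4 and 0, and 0 to 350. In rescue against control all genes gave 25 with the block, 1 after quantile normalization, 176 with the rescue columns alone and 0 to 176 with a sample left out. A left-out sample leaves 1 in its group, assumed to vary like the other group. Knockdown against rescue has no fit on fewer groups.

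Values near 0 changed sign. Shank2 in the knockdown was -0.03 after quantile normalization, -0.82 on its curated probe set and -0.17 to 0.18 with a sample left out. Against the rescue it was -0.73 on that probe set and -0.07 to 0.44, and its rescue value ran from -0.44 to 0.08. Dlgap1 against the rescue was 0.06 on its probe set without curated mRNAs and -0.25 to 0.04 with a sample left out. The other ranges with a sample left out were -0.14 to 0.42 for Homer3 against the rescue, -0.47 to 0.02 for Shank3 in the knockdown, and, in the rescue, -0.17 to 0.22 for Shank3, -0.05 to 0.10 for Shank1 and -0.09 to 0.15 for Dlg4. With the repeat as a block, calls changed for Homer2, Shank1 and Dlg4 in the knockdown (limma adjusted p = 0.0145, 0.0296 and 0.0201) and for 0 other scaffold values. These p-values against control are too small. The number of arrays limits the precision.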
